A study of Mus musculus with 18 samples.

Results

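The genes for immediate early and stress transcription factors, Fos, Jun, Myc, Max, Atf2, Creb1, Ddit3 and Bcl6, were followed in muscle of tumor-bearing mice. They were chosen by name from the panel and are 8 of its 254 genes. The samples came from a study of cancer cachexia, the wasting of muscle and fat in tumor-bearing hosts. Total RNA (100 ng) of TA muscle from male mice was measured on an nCounter inflammation panel, which counts barcoded probes bound to RNA with no amplification step. There were 18 samples in 6 groups of 3, a tumor-bearing and a non-tumor-bearing (control) group in each of 3 models. C26 mice were of strain CD2F1 and had received injected C26 cells, and their controls were CD2F1 mice without a tumor. LLC mice were of strain C57/B6 and had received LLC cells, with tumor-free C57/B6 controls. KPP mice were of strain C57/B6 and formed tumors after intraperitoneal tamoxifen, and the controls of that model were tumor-free C57/B6 mice whose tamoxifen treatment and alleles the labels do not state. The labels give no age, and 2 of the models rest on 1 injected tumor line each. Samples carry the letters of their titles (A, B and C in every group).

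Immediate early genes are transcribed within minutes of a signal, before new protein is made, and their products switch on later genes. Fos and Jun pair as the factor AP-1, which binds the sequence TGANTCA. Atf2 and Creb1 encode related leucine zipper factors that bind the cAMP response element (core TGACGT). Myc protein binds the E-box CACGTG as a pair with Max. Ddit3 encodes CHOP, a factor of the unfolded protein and integrated stress responses, and Bcl6 encodes a transcriptional repressor. In skeletal muscle, Fos, Jun and Myc respond to contraction, injury and overload.

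Promoter windows are shown because several of these factors bind sequences found before the genes of the same set. RefSeq windows (GRCm38.p6) were found for 7 of the 8 genes, and Myc had none. The 250 bases before each start site were searched on both strands for the cAMP response element core TGACGT, for the AP-1 site (TGANTCA, where N is any base), for its variant TGACATCA and for the E-box CACGTG. Among all 32851 RefSeq promoter windows of this length, 6.47% held the response element core, 6.75% the AP-1 site, 2.93% its variant and 6.02% the E-box. The 4 windows with a match are printed 5′ to 3′ on the gene's strand, for Fos (chr12:85473640-85473889, plus strand), Jun (chr4:95052223-95052472, minus strand), Ddit3 (chr10:127290543-127290792, plus strand) and the first of 2 Bcl6 windows (chr16:23988853-23989102, minus strand), with matches in capitals.
Fos: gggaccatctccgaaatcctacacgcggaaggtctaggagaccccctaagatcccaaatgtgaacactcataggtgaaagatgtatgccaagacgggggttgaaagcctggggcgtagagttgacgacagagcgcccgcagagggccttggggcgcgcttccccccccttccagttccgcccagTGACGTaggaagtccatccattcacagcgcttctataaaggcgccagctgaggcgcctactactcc
Jun: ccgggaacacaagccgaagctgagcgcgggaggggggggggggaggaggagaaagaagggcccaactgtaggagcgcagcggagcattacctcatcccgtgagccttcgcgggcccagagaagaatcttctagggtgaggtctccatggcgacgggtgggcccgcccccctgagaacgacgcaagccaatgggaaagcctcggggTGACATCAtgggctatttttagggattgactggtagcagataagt
Ddit3: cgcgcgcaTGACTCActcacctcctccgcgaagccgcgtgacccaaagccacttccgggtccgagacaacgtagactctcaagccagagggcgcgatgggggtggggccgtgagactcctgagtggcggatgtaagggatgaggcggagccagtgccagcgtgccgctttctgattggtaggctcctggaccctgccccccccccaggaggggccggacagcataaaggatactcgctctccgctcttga
Bcl6: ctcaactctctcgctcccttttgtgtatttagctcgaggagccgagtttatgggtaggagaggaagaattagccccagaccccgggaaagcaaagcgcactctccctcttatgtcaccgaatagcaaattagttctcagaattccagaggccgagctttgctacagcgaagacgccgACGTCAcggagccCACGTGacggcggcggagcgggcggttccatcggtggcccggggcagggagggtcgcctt
The capitals mark TGACGT in Fos (starting 66 bases before the start site), TGACATCA in Jun (45 bases before it) and TGACTCA in Ddit3 (242 bases before it). In Bcl6 they mark ACGTCA, the reverse complement of TGACGT, at 73 bases and CACGTG at 60 bases before the start site. The windows of Max, Atf2 and Creb1 and the second Bcl6 window held none of these letters. The matches are a description of the sequence; no binding was measured.

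Values are the deposited normalized signal, scaled by each model's own housekeeping genes, so levels are set side by side only within a model. A gene was tested in a model when at least 3 of the 6 samples reached 20 (in LLC, where lower values are listed as 20, when they were above 20). This kept 7 of the 8 genes in C26 and in LLC and 8 in KPP, since Creb1 passed only in KPP. The shallowest sample, C26 tumor C, held 29744 gene counts above background and the deepest, KPP tumor B, 402855; counting error at a signal of 100 was 7.76% to 17.95%. Of 7 muscle markers 4 were on the panel (Mef2c, Hspb2, Myl2 and Mef2a), and they were above 20 widely enough to be tested in every model; Ckm, Acta1 and Myh4 were not analysed here. Some samples stood apart. KPP tumor B was highest of the 6 KPP samples for 5 of the 8 genes (Fos, Myc, Max, Atf2 and Creb1), and its Gapdh (28733) was below the other 5 (43605 to 60368). KPP control B, the shallowest KPP sample (61273 counts), was lowest for the same 5 genes. C26 control C was highest of the 6 C26 samples for Jun, Myc, Max and Bcl6. Values without these samples are given beside many, though not all, of the results they moved. Because each sample is whole tissue, fewer cells of a type and less RNA per cell cannot be told apart.

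**Figure D1:**
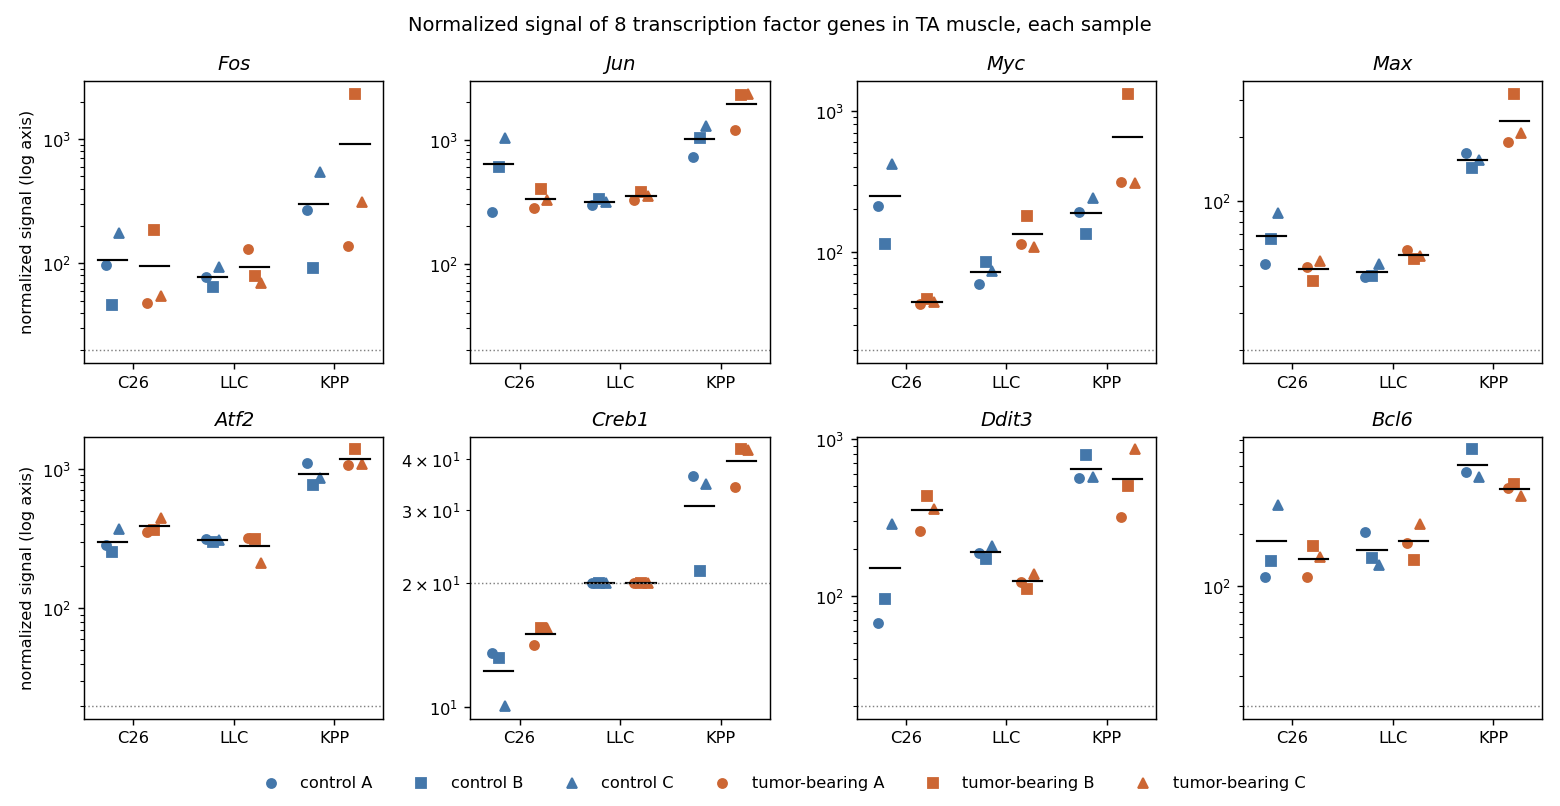
Normalized signal of each of the 8 genes (log axis) in every sample, by model, with controls in blue and tumor-bearing samples in orange, letters as symbols and bars at the mean of 3. The dotted line marks 20; Myc in C26 tumor-bearing samples sits at 42.72 to 45.88, below all 3 controls, and above its controls in LLC and KPP.

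Myc, the growth-promoting immediate early factor, was lower in tumor-bearing samples of C26 and higher in those of LLC and KPP. In C26 the control values were 210.95, 113.55 and 422.65 (249 ± 158, SD, n = 3) and the tumor-bearing values 42.72, 45.88 and 43.85 (44.2 ± 1.60). All 3 tumor-bearing samples lay below every control, and they spread by 3.63% of their mean, less than the counting error of up to 22.3% per value. In LLC the controls read 58.81, 84.27 and 72.52 (71.9 ± 12.7) and the tumor-bearing samples 113.31, 178.78 and 108.66 (134 ± 39.2). In KPP the controls read 191.62, 134.11 and 240.13 (189 ± 53.1) and the tumor-bearing samples 314.24, 1319.46 and 309.52 (648 ± 582). The groups did not overlap in LLC or KPP, with every tumor-bearing sample above every control, and KPP tumor B stood far above the rest.

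In the fit of each model alone, none of the 3 Myc differences passed an adjusted p of 0.05 (limma on log2(value + 1), Benjamini-Hochberg over the genes tested in that model). The log2 difference, tumor-bearing minus control, was -2.27 in C26 (SE 0.48, 95% interval -3.42 to -1.11, adjusted p = 0.0508). It was 0.86 in LLC (SE 0.23, 0.33 to 1.39, adjusted p = 0.0707). In KPP it was 1.45 (SE 0.61, adjusted p = 0.275, 95% interval up to 2.91 with a lower end just under 0), and 0.76 without KPP tumor B (adjusted p = 0.243). The C26 value without control C was -1.79 (adjusted p = 0.0413), and it also passed without control A (adjusted p = 0.0407) or control B (adjusted p = 0.0313). The LLC value passed without LLC tumor C (adjusted p = 0.0414). A fit that shared one spread over all 18 samples called Myc in C26 (adjusted p = 0.00507). That fit also called 34.4% of the 128 genes tested in C26, against 4.69% in the fit of C26 alone. It did not call Myc in LLC (adjusted p = 0.945) or KPP (adjusted p = 0.101).

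The tumor effect on Myc did differ between models when the difference itself was tested. The C26 effect was lower than the LLC effect by a log2 difference of -3.13 (SE 0.56, 95% interval -4.37 to -1.90, limma adjusted p = 0.00549), and lower than the KPP effect by -3.72 (SE 0.83, -5.55 to -1.90, adjusted p = 0.0209). These 2 tests share the C26 samples. Of all genes tested, 21.8% of 124 passed in C26 minus LLC and 11.9% of 126 in C26 minus KPP. The LLC and KPP effects did not differ by the test (-0.59, 95% interval -2.13 to 0.95, adjusted p = 0.666), where 4.72% of 127 genes passed. The C26 minus KPP difference was -3.03 without KPP tumor B (adjusted p = 0.0199) and lost its call without C26 tumor B (-3.75, adjusted p = 0.0519) or KPP control B (-3.50, adjusted p = 0.0517).

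Max, the obligate partner of Myc, shared the directions of Myc at smaller size and passed no test. In C26 its controls read 50.61, 66.69 and 88.46 (68.6 ± 19.0) and its tumor-bearing samples 49.21, 42.51 and 52.56 (48.1 ± 5.12). In LLC the controls read 44.11, 44.48 and 50.76 (46.5 ± 3.74) and the tumor-bearing samples 59.06, 53.77 and 55.54 (56.1 ± 2.69). In KPP the controls read 167.92, 143.77 and 157.09 (156 ± 12.1) and the tumor-bearing samples 189.5, 319.87 and 209.22 (240 ± 70.3). Groups overlapped in C26, and every tumor-bearing sample was above every control in LLC and KPP. The log2 differences were -0.47 in C26 (SE 0.28, limma adjusted p = 0.283; -0.27 without C26 control C), 0.27 in LLC (SE 0.14, adjusted p = 0.306) and 0.58 in KPP (SE 0.26, adjusted p = 0.279; 0.35 without KPP tumor B). The C26 direction was not kept under median centring (0.02) or quantile normalization (0.27). The effects of C26 and LLC differed by -0.74 (adjusted p = 0.0843) and those of C26 and KPP by -1.05 (adjusted p = 0.0855), neither past the threshold. Without C26 control A both passed, at -0.94 (adjusted p = 0.0127) and -1.25 (adjusted p = 0.0291), and without C26 control C they were -0.54 (adjusted p = 0.106) and -0.85 (adjusted p = 0.162).

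**Figure D2:**
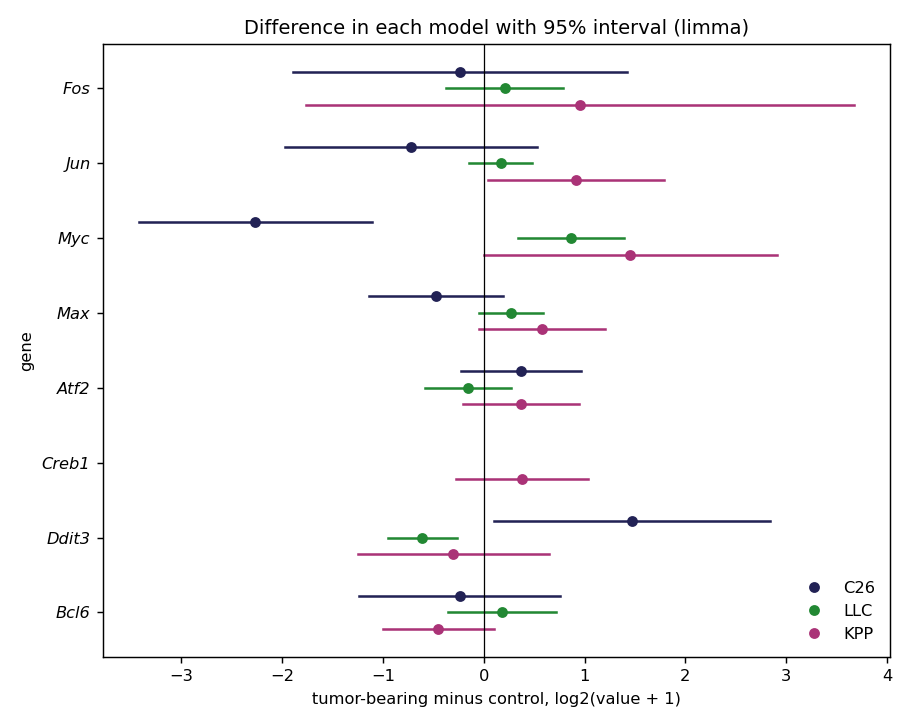
Log2 difference, tumor-bearing minus control, of each gene in C26, LLC and KPP with limma's 95% interval (3 samples per group; Creb1 was tested only in KPP). The Myc interval lies below 0 in C26 (-3.42 to -1.11) and above 0 in LLC (0.33 to 1.39), and no gene passed an adjusted p of 0.05 in the fit of its model alone.

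Ddit3, the stress factor CHOP, ran opposite to Myc in C26 and LLC. In C26 the controls read 67.53, 95.14 and 289.15 (151 ± 121) and the tumor-bearing samples 259.51, 433.97 and 359.57 (351 ± 87.5). Control C lay above tumor A, so the groups overlapped by 1 sample. In LLC the controls read 188.46, 173.22 and 208.23 (190 ± 17.6) and the tumor-bearing samples 123.55, 111.57 and 137.64 (124 ± 13.0), all below every control. In KPP the controls read 569.16, 794.59 and 571.42 (645 ± 130) and the tumor-bearing samples 316.79, 502.43 and 860.02 (560 ± 276). KPP tumor A and B lay below every control and KPP tumor C above every control.

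The Ddit3 log2 difference was 1.47 in C26 (SE 0.56, 95% interval 0.10 to 2.84, limma adjusted p = 0.130), and 2.09 without C26 control C, where it passed (adjusted p = 0.0295). Without C26 control A it was 1.04 (adjusted p = 0.193). In LLC it was -0.61 (SE 0.15, -0.95 to -0.27, adjusted p = 0.0503), and it passed without LLC tumor C (adjusted p = 0.0256). In KPP it was -0.30 (SE 0.39, -1.25 to 0.64, adjusted p = 0.711; -0.29 without KPP tumor B and -0.15 without KPP control B). The fit over all 18 samples called Ddit3 in C26 (adjusted p = 0.0191), as it did 34.4% of the genes tested there. It did not call Ddit3 in LLC (adjusted p = 0.945) or KPP (adjusted p = 0.735). The C26 effect exceeded the LLC effect by 2.08 (SE 0.61, 0.73 to 3.43, adjusted p = 0.0363), which passed. Over the 12 fits that left out 1 sample it ranged from 1.65 to 2.69; the call was lost in 10 of them (adjusted p up to 0.0858), all but those without C26 control A or C26 control C. The C26 effect exceeded the KPP effect by 1.78, which did not pass (adjusted p = 0.147), and by 2.39 without C26 control C, which did (adjusted p = 0.0331). Without C26 control A that difference was 1.35 (adjusted p = 0.192).

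**Figure D3:**
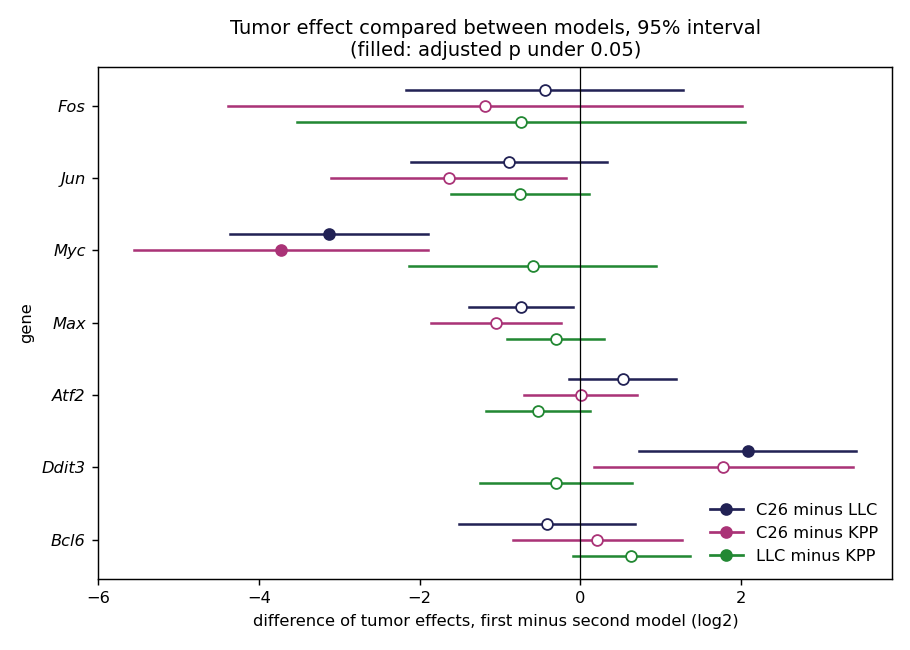
Difference between 2 models in the tumor effect (log2) for the 7 genes tested in every model, with 95% intervals; filled points passed an adjusted p of 0.05. Only Myc in C26 minus LLC (-3.13), Myc in C26 minus KPP (-3.72) and Ddit3 in C26 minus LLC (2.08) are filled.

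Fos, the AP-1 subunit whose window carries the TGACGT core, varied more between samples of a group than between groups. In C26 the controls read 96.53, 46.61 and 176.31 (106 ± 65.4) and the tumor-bearing samples 47.91, 184.25 and 54.74 (95.6 ± 76.8). In LLC they read 77.52, 64.37 and 93.24 (78.4 ± 14.5) against 129.58, 79.31 and 70.03 (93.0 ± 32.0). In KPP they read 269.76, 92.23 and 544.04 (302 ± 228) against 137.31, 2310.01 and 310.63 (919 ± 1207). The groups overlapped in all 3 models, and the KPP tumor-bearing mean rested on tumor B. The log2 differences were -0.24 in C26 (SE 0.68, limma adjusted p = 0.826), 0.21 in LLC (SE 0.25, adjusted p = 0.733) and 0.95 in KPP (SE 1.13, adjusted p = 0.688). Without KPP tumor B the KPP value was -0.21, without KPP control B it was 0.27, and without C26 control C the C26 value was 0.22. The 95% interval in KPP ran from -1.77 to 3.67, so these samples set little bound on a Fos change there.

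Jun, the other AP-1 subunit, read 260.1, 605.55 and 1037.65 in C26 controls (634 ± 390) and 280.28, 396.85 and 326.91 in C26 tumor-bearing samples (335 ± 58.7). In LLC it read 297.39, 332.4 and 312.86 (314 ± 17.5) against 326.06, 380.41 and 352.56 (353 ± 27.2). In KPP it read 724.56, 1026.56 and 1279.61 (1010 ± 278) against 1193.81, 2300.37 and 2336.56 (1944 ± 650). C26 controls spanned the tumor-bearing range, and in KPP only control C lay above a tumor-bearing sample, tumor A. The log2 difference was -0.72 in C26 (SE 0.51, limma adjusted p = 0.387), 0.17 in LLC (SE 0.14, adjusted p = 0.574) and 0.92 in KPP (SE 0.36, 95% interval 0.05 to 1.79, adjusted p = 0.259). The KPP value was 0.76 without KPP tumor B. Without C26 control A, the lowest C26 sample for Jun, the C26 difference was -1.26 and passed (adjusted p = 0.0407), and so did C26 minus LLC (-1.42, adjusted p = 0.00773) and C26 minus KPP (-2.17, adjusted p = 0.0191). With that sample the last 2 were -0.89 (adjusted p = 0.263) and -1.64 (adjusted p = 0.147). Without C26 control C, the highest, the C26 difference was -0.26 (adjusted p = 0.752).

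Atf2, a leucine zipper factor activated by stress kinases, passed no test in any model. Its C26 controls read 281.85, 252.45 and 367.53 (301 ± 59.8) and the tumor-bearing samples 352.98, 364.23 and 440.13 (386 ± 47.4). In LLC the controls read 316.1, 296.11 and 309.75 (307 ± 10.2) and the tumor-bearing samples 318.83, 311.86 and 210.08 (280 ± 60.9), of which only tumor C was low. In KPP the controls read 1103.85, 765.59 and 859.81 (910 ± 175) and the tumor-bearing samples 1057.61, 1376.09 and 1072.86 (1169 ± 180). The groups overlapped in each model. The log2 differences were 0.37 in C26 (SE 0.25, limma adjusted p = 0.344), -0.16 in LLC (SE 0.19, adjusted p = 0.732; 0.04 without LLC tumor C) and 0.37 in KPP (SE 0.24, adjusted p = 0.400; 0.24 without KPP tumor B). The C26 and LLC effects differed by 0.53 (adjusted p = 0.223) as deposited, which did not pass. It passed under each of the 3 other scalings, at 0.99 without Gapdh and Pgk1 (adjusted p = 0.047), 1.27 with median centring (adjusted p = 0.00902) and 0.91 with quantile normalization (adjusted p = 0.0444).

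Creb1, the founding cAMP response element binding factor, was at the edge of detection. It read 13.54, 13.14 and 10.07 in C26 controls (12.3 ± 1.90) and 14.16, 15.51 and 15.54 in C26 tumor-bearing samples (15.1 ± 0.788), all under the limit of 20 and therefore untested. The tumor-bearing samples lay above controls, as did 12.5% of tested C26 genes. These values stand for only 7 to 14 counts (12 to 17 in controls), with a counting error of up to 37.4%. All 6 LLC values were listed at the floor of 20, which is a bound. In KPP it read 36.22, 21.34 and 34.79 (30.8 ± 8.21) against 34.21, 42.1 and 42.07 (39.5 ± 4.55). The KPP groups overlapped, and the log2 difference was 0.38 (SE 0.27, 95% interval -0.27 to 1.03, limma adjusted p = 0.459; 0.14 without KPP control B, the lowest sample).

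Bcl6, the repressor, passed no test in any model. In KPP the controls read 461.16, 620.61 and 429.96 (504 ± 102) and the tumor-bearing samples 368.98, 392.77 and 330.69 (364 ± 31.3), all below every control. In C26 it read 112.65, 138.65 and 296.04 (182 ± 99.2) against 112.82, 169.62 and 146.19 (143 ± 28.5). In LLC it read 205.17, 145.13 and 132.6 (161 ± 38.8) against 177.19, 141.14 and 229.4 (183 ± 44.4). Groups overlapped in C26 and LLC. The log2 difference was -0.45 in KPP (SE 0.23, limma adjusted p = 0.323; -0.51 without KPP tumor B and -0.29 without KPP control B), -0.24 in C26 (SE 0.41, adjusted p = 0.693; 0.17 without C26 control C) and 0.18 in LLC (SE 0.23, adjusted p = 0.739). The tests of the effects between models did not pass either, at -0.42 for C26 minus LLC (adjusted p = 0.543), 0.21 for C26 minus KPP (adjusted p = 0.835) and 0.63 for LLC minus KPP (95% interval -0.097 to 1.36, adjusted p = 0.343).

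Counted together, none of the 8 genes passed in the fit of a model alone, where 4.69% of 128 tested genes passed in C26, 6.2% of 129 in LLC and 3.82% of 157 in KPP. At an unadjusted p under 0.05, Myc and Ddit3 passed in C26, Myc and Ddit3 in LLC, and Jun in KPP, against 42, 26 and 27 of all tested genes. Tumor-bearing samples all lay below controls for Myc in C26, where 29.7% of tested genes did so and 12.5% had all samples above. In LLC, Max and Myc lay wholly above controls and Ddit3 wholly below, where 17.8% and 9.3% of tested genes did. In KPP, Max and Myc lay wholly above and Bcl6 wholly below, where 16.6% and 13.4% did. The median log2 difference of the tested members was -0.24 in C26, 0.18 in LLC and 0.48 in KPP, beside -0.28, 0.07 and 0.01 over all tested genes. Scaling without Gapdh and Pgk1 moved the median of all genes to 0.12 in C26 and to -0.19 in KPP, and C26 Gapdh ranged from 7871 to 10539 in controls and from 13618 to 16655 in tumor-bearing samples. C26 differences are given relative to the deposited scale.

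**Figure D4:**
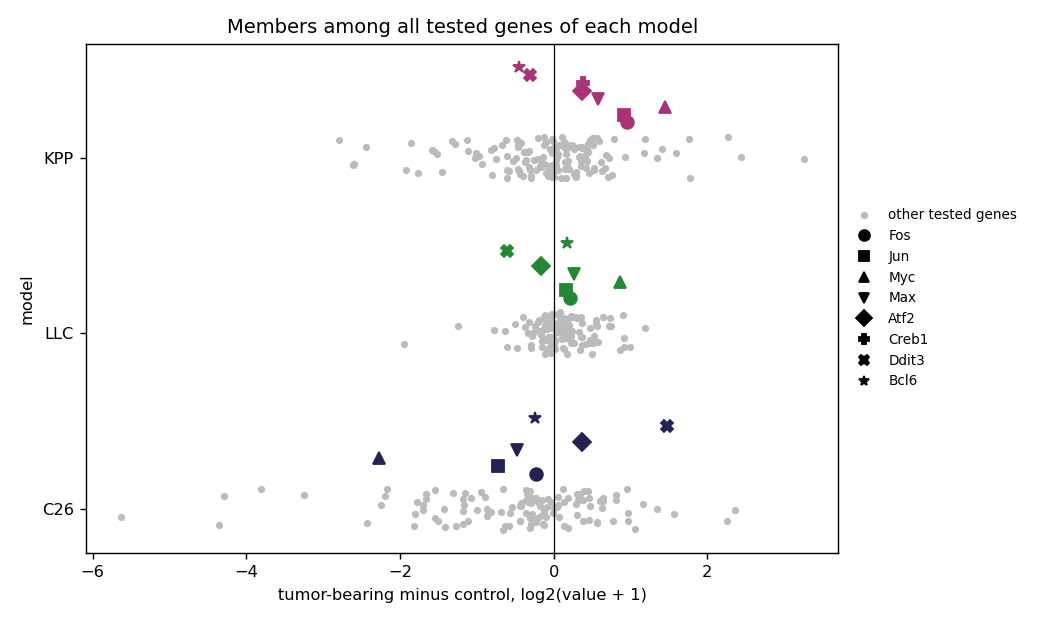
Log2 difference, tumor-bearing minus control, of each of the 8 genes (colored symbols, set above the others for legibility) among all other tested genes (gray) in C26 (128 tested), LLC (129) and KPP (157). Vertical position within a model carries no value; Myc is the lowest of the named genes in C26 (-2.27) and the highest in LLC (0.86) and KPP (1.45).

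Sample by sample, each value was set against the mean of its model's 6 samples on the log2 scale. KPP tumor B was high for Fos and Myc together, and C26 control C for Jun and Myc together. Over all 18 samples the deviations of Myc and Max had r = 0.84 (Spearman 0.78; r = 0.78 without KPP tumor B), a description of samples that share normalization and depth within a sample. Myc and Ddit3 ran opposite (r = -0.45, Spearman -0.61). Fos and Myc had r = 0.60, which was 0.40 without KPP tumor B. Among the 123 genes tested in all 3 models, the nearest in pattern to Myc were Ripk2, a kinase of innate immune receptors (r = 0.94), and Il6ra, a subunit of the IL-6 receptor (r = 0.92). Those nearest to Max were Il6ra (r = 0.93) and Nfe2l2, the factor of the oxidative stress response (r = 0.91). For Jun they were Hspb1, a small heat shock protein (r = 0.86), and Keap1, the partner that restrains Nfe2l2 protein (r = 0.81). For Fos they were Mafk (r = 0.73, and 0.46 without KPP tumor B) and Hmgn1 (r = 0.69), for Atf2 Birc2 (r = 0.90) and Tcf4 (r = 0.75), for Ddit3 Pdgfa (r = 0.69) and Map3k7 (r = 0.66), and for Bcl6 Ppp1r12b (r = 0.64) and Cdc42 (r = 0.57). Without the 2 samples farthest from the median, r was 0.41 for Ddit3 and Map3k7, 0.45 for Fos and Mafk and 0.12 for Bcl6 and Cdc42, so the last rests on those samples.

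**Figure D5:**
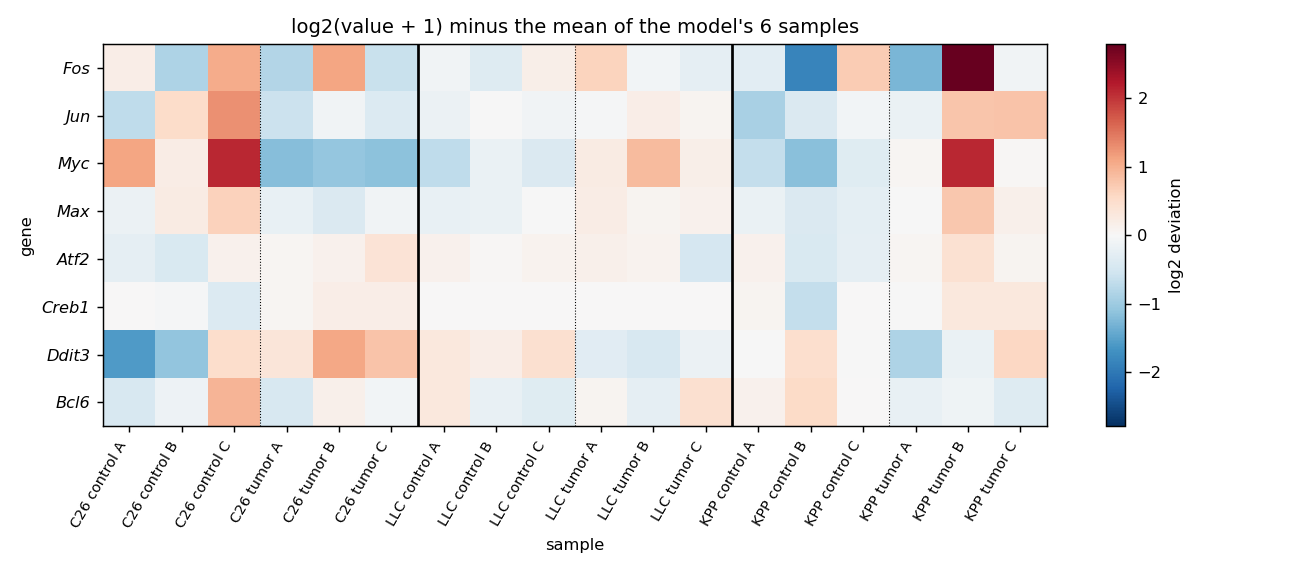
Deviation of log2(value + 1) from the mean of the model's 6 samples (color, log2 units) for each gene (rows) and sample (columns); solid lines part the models and dotted lines part controls from tumor-bearing samples. KPP tumor B is dark red for Fos (2310.01) and Myc (1319.46), and the 3 C26 tumor-bearing samples are blue for Myc.

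Factors that pair with or act beside the members were a second list of 12 genes. In C26, where 4.69% of all tested genes passed, 2 of 10 fell and none rose: Stat3, the factor downstream of IL-6 receptors, went from 904 ± 133 to 258 ± 18.5 (log2 difference -1.80, limma adjusted p = 0.0140), and Maff, a small Maf protein, from 38.8 ± 2.95 to 16.9 ± 2.46 (-1.16, adjusted p = 0.0363). In LLC, where 6.2% of all tested genes passed, 1 of 10 rose, Cebpb, a factor whose protein pairs with CHOP, from 564 ± 12.7 to 948 ± 195 (0.73, adjusted p = 0.0489), and the next smallest p was that of Mafg (-0.32, adjusted p = 0.271). In KPP, where 3.82% of all tested genes passed, none of 11 did, with Cebpb at 1.34 (adjusted p = 0.0722) and Maff at 1.77 (adjusted p = 0.245). The list's median difference was -0.38 in C26, 0.15 in LLC and 0.46 in KPP, beside -0.28, 0.07 and 0.01 over all tested genes.

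Kinases and adaptors upstream of the members were a list of 16 genes. Beside it, 4.69% of all tested genes passed in C26, 6.2% in LLC and 3.82% in KPP. In C26, of 13 tested, 1 rose and none fell: Map2k6, the kinase that activates p38, went from 85.0 ± 32.3 to 392 ± 9.40 (log2 difference 2.26, limma adjusted p = 0.0140), and the next was Rps6ka5, a kinase that phosphorylates CREB (1.06, adjusted p = 0.0768). In LLC none of 13 passed, with Map2k6 at -0.61 (adjusted p = 0.107) and Mapk8 at -0.21 (adjusted p = 0.514). In KPP none of 14 passed, with Map2k6 going from 1085 ± 13.7 to 220 ± 175 (-2.61, adjusted p = 0.0547). The list's median difference was 0.19 in C26, -0.11 in LLC and 0.05 in KPP, beside the same medians over all tested genes (-0.28, 0.07 and 0.01).

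Textbook AP-1 targets (Mmp3, Mmp9, Ptgs2, Il6 and Ccl2) formed the last list, of which 3 were tested in each model. The shares of all tested genes that passed were 4.69% in C26, 6.2% in LLC and 3.82% in KPP. None passed in C26 (Mmp3 -4.28, limma adjusted p = 0.0713; Ptgs2 -1.17, adjusted p = 0.213) or LLC (Ccl2 0.35, adjusted p = 0.358; Mmp3 -0.77, adjusted p = 0.427). In KPP 1 of 3 fell, the matrix metalloproteinase Mmp9, also a neutrophil marker, from 60.4 ± 7.06 to 20.01 ± 4.33 (-1.56, adjusted p = 0.0247), and Ccl2 was at 0.63 (adjusted p = 0.760). The list's median difference was -1.17 in C26, -0.48 in LLC and -0.47 in KPP, over only 3 genes each and beside -0.28, 0.07 and 0.01 over all tested genes.

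Summed markers of other cell types are given beside Myc. Genes past the test were 4.69% of those tested in C26, 6.2% in LLC and 3.82% in KPP. For macrophages 6 of 10 listed markers were on the panel, and their summed level ranged from 643.63 to 3110.01 in C26 controls and from 219.05 to 469.94 in C26 tumor-bearing samples, with 0 markers past the test and 4 of 5 tested markers wholly below controls, as were 29.7% of all tested genes. In LLC the sum was 354.82 to 446.82 in controls and 507.79 to 720.95 in tumor-bearing samples, with 1 marker past the test (Ccr2, higher) and Cd86 at the floor in all 6. In KPP the macrophage sum overlapped at 1146.18 to 1810.85 against 771.69 to 1999.32. The adipocyte marker Cfd was 1389.93 to 9604.19 in C26 controls and 47.01 to 87.4 in tumor-bearing samples (log2 difference -5.63, limma adjusted p = 0.0140). It overlapped in LLC, at 297.39 to 622.66 against 170.24 to 1163.81. In KPP it was 1200.54 to 5037.25 against 419.89 to 920.58 (-1.93, adjusted p = 0.157), wholly below controls, as were 13.4% of all tested genes.

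Of the other lists, the summed fibroblast markers (5 of 5 on the panel) were 1723.94 to 5810.98 in C26 controls and 699.62 to 1384.15 in tumor-bearing samples, with 0 of 5 past the test. The markers did not move together in C26, where 2 of 5 lay wholly below controls and 1, C7 (log2 difference 0.98), wholly above. Masp1 was also higher (0.96). Among all tested genes of C26, 29.7% lay wholly below and 12.5% wholly above. In KPP they were 3827.95 to 5442.88 against 1698.5 to 1884.12, and 3 of 5 fell past the test, where 3.82% of all tested genes passed. There 4 markers lay wholly below controls and 1, Masp1 (log2 difference 1.18), wholly above. In LLC they were 1022.49 to 1071.94 against 1095.1 to 1476.72, with 0 past the test. No marker lay wholly above controls in LLC, and Masp1 lay wholly below (log2 difference -0.63), as did 9.3% of all tested genes. C3 went from 590 ± 49.6 to 830 ± 167 there, with overlap. The muscle markers summed to 1346.95 to 2776.99 in C26 controls and 3291.69 to 4168.71 in tumor-bearing samples, with 0 of 4 past the test, and overlapped in LLC and KPP. The largest part of the C26 sum was Mef2c (1325 ± 632 in controls, 2713 ± 323 in tumor-bearing samples). In C26, Mef2c and Hspb2 lay wholly above controls, as did 12.5% of all tested genes. Myl2 (log2 difference 0.56) and Mef2a (-0.29) overlapped there. The endothelial markers (2 of 3 on the panel) summed to 777.27 to 1014.52 in KPP controls and 1499.39 to 1917.92 in tumor-bearing samples, with 0 of 2 past the test. They overlapped in C26 and in LLC, where 1 of 2 rose and 6.2% of all tested genes passed. Neutrophil markers (3 of 4 on the panel) were too low to be tested in C26 and LLC, and in KPP 1 of 2 fell, Mmp9, the gene also listed as an AP-1 target. The other, Il1b, leaned higher in KPP and overlapped (log2 difference 0.34, limma adjusted p = 0.688). The part of these cells in the Myc values was not tested.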

How the data were processed

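The deposited table holds a normalized signal per gene for 18 samples; the authors' software and steps are not given in the sources. Read from the values, scaling was done model by model to an equal geometric mean of 6 housekeeping genes (532.0 in C26, 591.2 in LLC, 1769.1 in KPP), a background was subtracted in C26 and KPP, and LLC values under 20 were set to 20. Low values were multiples of 1 step per sample (100% of them within a tolerance of 0.1), so 1 count was worth 0.6025 to 3.222. Whole counts could not be recovered for all genes after subtraction and floor, so no count test was run.

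Values were taken as log2(value + 1), which understates changes of low genes. limma 3.58.1 (R 4.3.3) was fitted to the 6 samples of each model, and to the 12 samples of 2 models for differences between tumor effects, with Benjamini-Hochberg adjustment over tested genes, two-sided, threshold 0.05. Nothing in the labels says whether samples of a group are separate mice, so p-values measure the spread between these samples; an exact permutation test of 3 against 3 could not go below 0.1. Cartridges and lanes are unknown here, and no 2 samples held identical values. Intervals on counts cover counting error only.

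The text names all 8 members, from the lists of partner factors, upstream kinases and AP-1 targets each gene that passed (or the 2 smallest p where fewer than 2 did), and the 2 genes most like each member tested in every model. A result that this rule names is not reported here. Members and lists were chosen with earlier results of these data known. Mef2c_Mm in the file is written Mef2c. Alternatives were pseudocounts of 5 and 20, no filter, a minimum of 50, scaling to 4 housekeeping genes (Gapdh and Pgk1 left out), median centring and quantile normalization, fits over 18 samples, trend and robust moderation, the letters as a block, and leaving out each sample.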

Additional observations from a re-analysis of the deposited data

Results flagged for a closer look

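The tumor effect on Myc differed between models by a test of the difference itself (limma over the samples of both models). It was lower in C26 than in LLC by -3.13 on the log2 scale, with all 3 C26 tumor-bearing samples below their controls and all 3 LLC tumor-bearing samples above theirs. It was lower in C26 than in KPP by -3.72, with all 3 KPP tumor-bearing samples above their controls; the same C26 samples enter both tests.

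The tumor effect on Ddit3 was higher in C26 than in LLC by 2.08 by the same test, with 2 of 3 C26 tumor-bearing samples above every control and all 3 LLC tumor-bearing samples below theirs. This call was lost in 10 of 20 alternatives (limma adjusted p up to 0.0858). In the same contrast 21.8% of all genes tested passed.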

How the results depend on the processing

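The Myc difference C26 minus LLC passed under all 20 alternatives run (-3.59 to -2.39, limma adjusted p 0.000668 to 0.0217), and C26 minus KPP under 18 of 20 (-4.19 to -3.03). The Ddit3 difference C26 minus LLC passed under 10 of 20 (1.65 to 2.83). The number of members that passed changed in places. In C26 alone it was 0, and 2 (Myc and Ddit3) in both fits over 18 samples, and 0 to 2 with 1 sample left out; Myc passed without any 1 control (adjusted p 0.0313 to 0.0413). In LLC alone it was 0, and 1 with a pseudocount of 20, 1 with a minimum of 50, 2 with trend and robust moderation, and 0 to 2 with 1 sample left out. For C26 minus LLC it was 2, 3 under each of the 3 other scalings, and 1 to 4 with 1 sample left out. For C26 minus KPP it was 1, 2 when scaled without Gapdh and Pgk1, 2 in the fit over 18 samples, and 0 to 3 with 1 sample left out. In KPP alone and in LLC minus KPP it was 0 under each alternative run.

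Directions turned for small differences, and the cause was not tested. Under scaling without Gapdh and Pgk1, median centring and quantile normalization, Fos in C26 was 0.17, 0.26 and 0.41, Bcl6 in C26 0.17, 0.25 and 0.38, Fos in C26 minus LLC 0.018, 0.30 and 0.33, and Bcl6 in C26 minus LLC 0.045, 0.33 and 0.26. Under the last 2 of these, Max was 0.018 and 0.27 in C26 and 0.0034 and 0.17 in C26 minus LLC. Atf2 in C26 minus KPP was -0.00045 with a pseudocount of 5 and -0.011 with 20. With 1 sample left out, Fos ranged from -0.84 to 0.22 in C26, -0.056 to 0.38 in LLC, -0.21 to 1.82 in KPP, -1.05 to 0.017 in C26 minus LLC and -1.62 to 0.41 in LLC minus KPP. Bcl6 ranged from -0.52 to 0.17 in C26 and -0.069 to 0.62 in C26 minus KPP, and Atf2 from -0.26 to 0.038 in LLC and -0.15 to 0.16 in C26 minus KPP. Ddit3 ranged from -0.67 to 0.045 in KPP and -0.66 to 0.064 in LLC minus KPP, and Myc from -0.94 to 0.10 in LLC minus KPP.

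The labels do not say whether the letters A to C pair samples. Correlations of same-letter samples ran from -0.335 to 0.245. They were not set against those of samples with different letters, so they cannot decide the question. With the letter as a replicate block, 2 members passed in LLC, Myc (adjusted p = 0.0184) and Ddit3 (adjusted p = 0.0442), and none in C26 or KPP. Depth limits Creb1 most, with a counting error up to 38.9% in a KPP control.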
